A study of Ovis aries with 36 samples.

Results

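Brown fat burns fuel to make heat, and the genes described here are those most often used to recognise it: UCP1, CIDEA, PPARGC1A, PRDM16, DIO2, ELOVL3, EBF2 and ADRB3. They were found by name among the loci counted in each tissue, and counts of loci that carry the same name were summed. All 8 genes were present among the 22148 gene names shared by the 3 tissues. The samples were 36 RNA pools of sheep fetuses, from the longissimus dorsi muscle, the subcutaneous fat near the shoulder blade and the perirenal fat. Each tissue had 12 pools, 4 per maternal diet, of which 2 were female and 2 male. Polypay ewes mated to 1 sire received, from mid gestation until necropsy late in gestation, 1 of 3 diets with energy mainly from corn starch (CN), from dried distillers grains (DG) or from the fiber of alfalfa haylage (HY). None of the diets was a shared control, so each was compared with the other 2. A pool held RNA of 1 or more fetuses and some pools of a diet shared a dam, so the spread between pools is not a spread between independent litters.

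In a brown adipocyte, noradrenaline acts on the beta3-adrenergic receptor, cAMP rises, lipid is broken down and the fatty acids open a proton channel in the inner mitochondrial membrane, so that respiration releases heat. A small group of transcription regulators gives the cell this identity, and thyroid hormone made active inside the cell raises its capacity. Perirenal fat of the fetal lamb is known as a brown depot that serves heat production at birth.

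Total counts ranged from 13749762 to 29625146 in muscle, from 6705766 to 20272024 in subcutaneous and from 7802700 to 15913813 in perirenal tissue. Levels are given as normalised CPM, the count relative to the library total after TMM scaling over all 36 pools. The subcutaneous pools were not uniform. The summed level of 10 skeletal muscle marker genes (of 14 listed) was 119242 to 171413 CPM in muscle and 10.1 to 554 CPM in perirenal tissue, but 837 to 132168 CPM in subcutaneous tissue, with pool DG F1 inside the range of muscle and pool HY F2 just under it, at 113559 CPM. Medians of this sum in subcutaneous tissue were 15993 CPM in CN, 69988 CPM in DG and 9067 CPM in HY. The summed adipocyte markers (7 of 10 listed) were 2078 to 11421 CPM in subcutaneous, 5668 to 14874 CPM in perirenal tissue and 102 to 213 CPM in muscle. Of 8 kidney markers, UMOD, SLC34A1 and AQP2 were at 0 in all perirenal pools, and the summed level did not exceed 6.91 CPM. In bulk RNA, fewer cells of a type and less RNA per cell cannot be told apart.

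UCP1, CIDEA, PRDM16, DIO2, EBF2 and ADRB3 were each highest in perirenal tissue, lower in subcutaneous tissue and lowest in muscle. PPARGC1A ran the other way, and ELOVL3 was highest in subcutaneous tissue. Between perirenal and subcutaneous tissue, those 6 genes were higher and PPARGC1A was lower in the perirenal pools at FDR ≤0.05 in edgeR's quasi-likelihood test. Over all 13878 genes tested, 32% were higher and 35.3% lower, so that a call by itself sets none of these genes apart and their sizes and per-pool values matter more. ELOVL3 passed the filter on low counts only through the subcutaneous pools, where it is high, so its difference is given as a description and not counted. For the same reason UCP1, DIO2 and ADRB3, of which muscle held almost no counts, are not counted in the comparisons with muscle. Of the 4 genes with enough counts in muscle itself, CIDEA, PRDM16 and EBF2 were higher and PPARGC1A was lower in perirenal tissue (38.7% of all genes were higher and 41.4% lower) and likewise in subcutaneous tissue (36.1% and 36.7%).

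**Figure D1:**
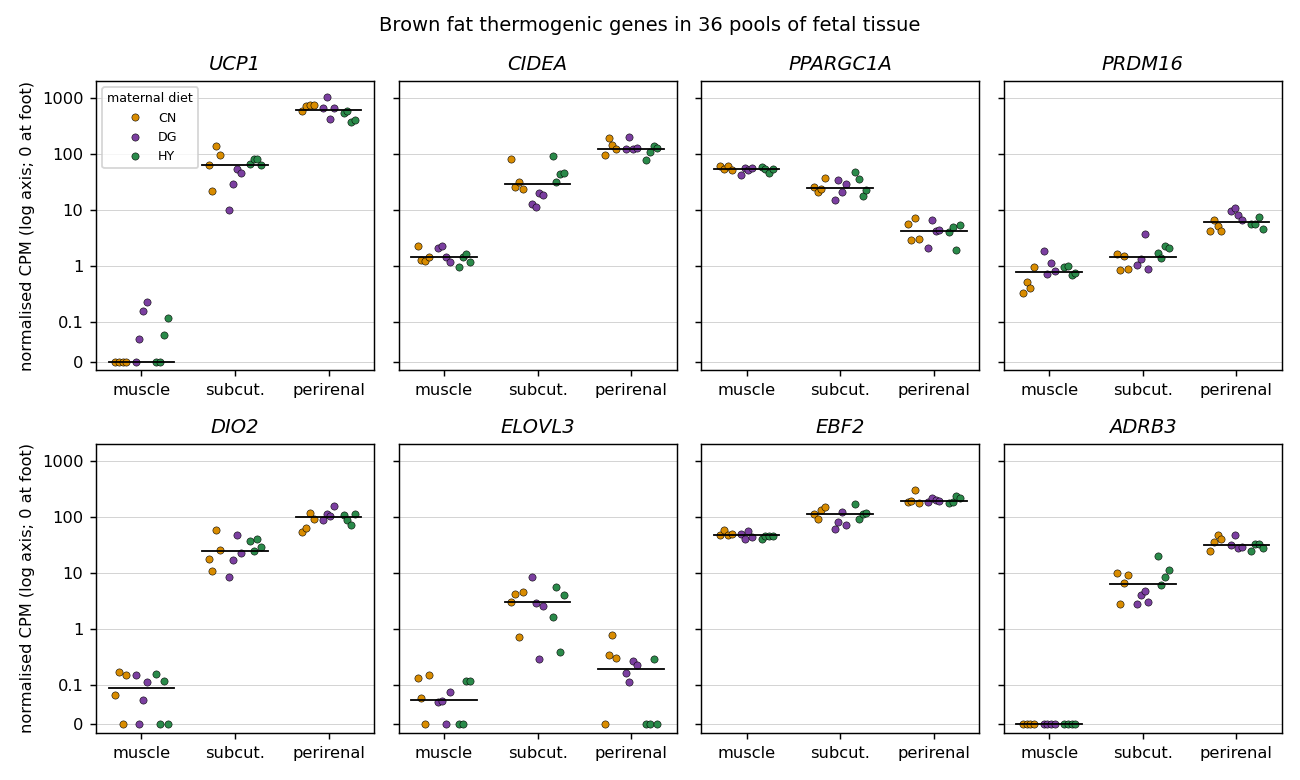
Normalised CPM of each gene on a log axis in the 12 pools of muscle, subcutaneous (subcut.) and perirenal tissue, coloured by maternal diet, with a line at the median and pools without a count drawn at the foot. UCP1 rises from a median of 0 in muscle to 63.2 CPM in subcutaneous and 618 CPM in perirenal tissue, while PPARGC1A falls from 55.1 to 24.5 to 4.26 CPM.

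UCP1 encodes the uncoupling protein of the inner mitochondrial membrane, the heat-making channel itself. It is listed at chromosome 17, positions 16744036 to 16885304 of Oar_v3.1 in the perirenal files. Its level in perirenal tissue was 369 CPM in the lowest pool, 618 CPM at the median and 1032 CPM in the highest. In subcutaneous tissue the corresponding values were 10.2, 63.2 and 138 CPM, and in muscle only 13 counts were seen in 12 pools, with 7 pools at 0. The tissues did not overlap in any pool. The difference between perirenal and subcutaneous tissue was 3.38 ± 0.26 on the log2 scale (SE, adjusted p = 4.43e-12, edgeR), a 10.4-fold higher level. The highest subcutaneous pool exceeded the lowest by 13.5 times, against 2.80 times in perirenal tissue. The interval listed for UCP1 is 141269 bases long and is shared in every tissue with loci named TBC1D9 and ELMOD2, and how reads were divided among them was not tested. ELMOD2 and TBC1D9 had 10376 and 2874 counts in the perirenal pools, beside 92510 for UCP1.

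CIDEA encodes a lipid droplet protein that is abundant in brown adipocytes. In perirenal tissue it stood at 78.9, 125 and 200.3 CPM (lowest, median and highest pool), in subcutaneous tissue at 11.6, 28.8 and 91.2 CPM, and in muscle at 0.949, 1.44 and 2.29 CPM. Muscle lay apart from both adipose depots, but the depots overlapped, because 2 subcutaneous pools (CN F1 at 82.7 CPM and HY F1 at 91.2 CPM) exceeded the lowest perirenal pool. The difference between depots was 2.01 ± 0.19 (SE, log2, adjusted p = 1.19e-10, edgeR). CIDEA was among the more variable of the genes in subcutaneous tissue, with an SD of 70.5% of its mean over the 12 pools, against 26.3% in perirenal tissue.

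ADRB3, the receptor through which noradrenaline starts the response, had no count in any of the 12 muscle pools. Perirenal pools ranged from 24.3 to 47.6 CPM (median 31.3) and subcutaneous pools from 2.79 to 20.3 CPM (median 6.22). The perirenal pools lay above every subcutaneous pool, and the difference was 2.32 ± 0.20 (SE, log2, adjusted p = 7.53e-10, edgeR). Against a floor of 3 counts over all muscle pools together, scaled like the levels, ADRB3 was at least 2403-fold higher in perirenal and at least 534-fold higher in subcutaneous tissue. Its listed locus was shorter in muscle (1916 bases) than in subcutaneous (2979 bases) or perirenal tissue (3003 bases), since loci were assembled separately per tissue.

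DIO2 encodes the deiodinase that makes active thyroid hormone within the cell. Its levels were 53.6, 98.2 and 158 CPM in perirenal tissue (lowest, median, highest) and 8.26, 24.6 and 58.1 CPM in subcutaneous tissue, with 18 counts in all muscle pools. Only the highest subcutaneous pool, CN M1, passed the lowest perirenal pool, CN F1. The difference between depots was 1.80 ± 0.24 (SE, log2, adjusted p = 1.23e-07, edgeR).

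Among the transcription regulators, PRDM16, which steers precursors to the brown rather than the muscle fate, was scarce everywhere. It stood at 4.28, 6.10 and 10.9 CPM in perirenal pools (lowest, median, highest), at 0.861, 1.46 and 3.71 CPM in subcutaneous pools and at 0.331, 0.798 and 1.84 CPM in muscle. The perirenal pools lay above all others, with a difference from subcutaneous tissue of 2.02 ± 0.20 (SE, log2, adjusted p = 3.52e-10, edgeR), although subcutaneous values rested on only 6 to 39 counts per pool. EBF2, a factor that opens brown fat genes in precursor cells, was measured in every tissue. Its levels were 174, 191 and 295 CPM in perirenal, 61.0, 112 and 166 CPM in subcutaneous pools and 39.3, 46.4 and 59.2 CPM in muscle. No pools of different tissues overlapped, and the depots differed by 0.93 ± 0.11 (SE, log2, adjusted p = 1.03e-08, edgeR), the smallest difference among the 8 genes.

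PPARGC1A, a coactivator that drives mitochondrial biogenesis in both brown fat and oxidative muscle, was lowest in perirenal tissue. Perirenal pools held 1.93, 4.26 and 7.17 CPM (lowest, median, highest), subcutaneous pools 15.4, 24.5 and 47.5 CPM, and muscle pools 42.3, 55.1 and 60.5 CPM. Every perirenal pool lay below every subcutaneous pool, with a difference of -2.68 ± 0.19 (SE, log2, adjusted p = 9.66e-14, edgeR). A feature of the files moves with this result. In perirenal tissue the name sits on 2 loci with the same start and end (chromosome 6, 43223808 to 43331475), 1 with 618 counts in the 12 pools and the other with 1 count, whereas the other tissues have a single PPARGC1A locus. A second locus with the same interval in perirenal but not in subcutaneous tissue was found for 787 tested names, of which 44.7% were called lower and 34.6% higher in perirenal tissue, with a 10th percentile of -2.73 on the log2 scale. Among the 8427 names with such a locus in neither depot, 34.4% were called lower and 30.3% higher, with a 10th percentile of -1.56. The part of the second locus in the PPARGC1A difference was not tested.

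ELOVL3, an elongase of very long chain fatty acids induced by cold in rodent brown fat, was near the limit of detection in perirenal tissue. The 12 perirenal pools held 31 counts in all, with 4 pools at 0 and a highest level of 0.786 CPM. Subcutaneous pools ranged from 0.286 to 8.26 CPM (median 2.98), and muscle pools held 13 counts. The depots overlapped, and the fitted difference was -4.11 ± 0.53 (SE, log2). With so few counts, the fitted difference between perirenal tissue and muscle (1.43 ± 0.79, SE, log2, adjusted p = 0.0953, edgeR) is given only as a description.

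The subcutaneous levels moved with the muscle markers. Over the 12 subcutaneous pools, log2 levels of EBF2 (Pearson r = -0.84, permutation p = 0.00091; Spearman rho = -0.87), DIO2 (r = -0.81, permutation p = 0.00168; rho = -0.81) and PRDM16 (r = -0.71, permutation p = 0.00985; rho = -0.63) were lower where the muscle sum was higher. ELOVL3 was higher there (r = 0.80, permutation p = 0.00235; rho = 0.73), although muscle itself held a median of only 0.0543 CPM of it. Without the 2 pools farthest from the median of the muscle sum, r was -0.82 for EBF2, -0.79 for DIO2, -0.58 for PRDM16 and 0.80 for ELOVL3, and as deviations from diet means it was -0.91, -0.79, -0.75 and 0.83. UCP1 (r = -0.56), CIDEA (r = -0.48), ADRB3 (r = -0.63) and PPARGC1A (r = -0.12) did not pass after adjustment.

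The adipocyte marker sum gave the mirror pattern in subcutaneous tissue, with r = 0.83 for EBF2, 0.80 for DIO2, 0.76 for UCP1, 0.71 for ADRB3 and -0.71 for ELOVL3. Of the 32 relations computed between the 2 marker sums and the 8 genes in both depots, 9 had a Benjamini-Hochberg adjusted permutation p of 0.05 or less by Pearson's r, and all 9 were in subcutaneous tissue. Spearman's adjusted p was 0.0154 for EBF2 and 0.0363 for DIO2 with the muscle sum and 0.0383 for DIO2 with the adipocyte sum, and above 0.05 for the other 6. Both measures of a relation come from the same library and share its total.

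**Figure D2:**
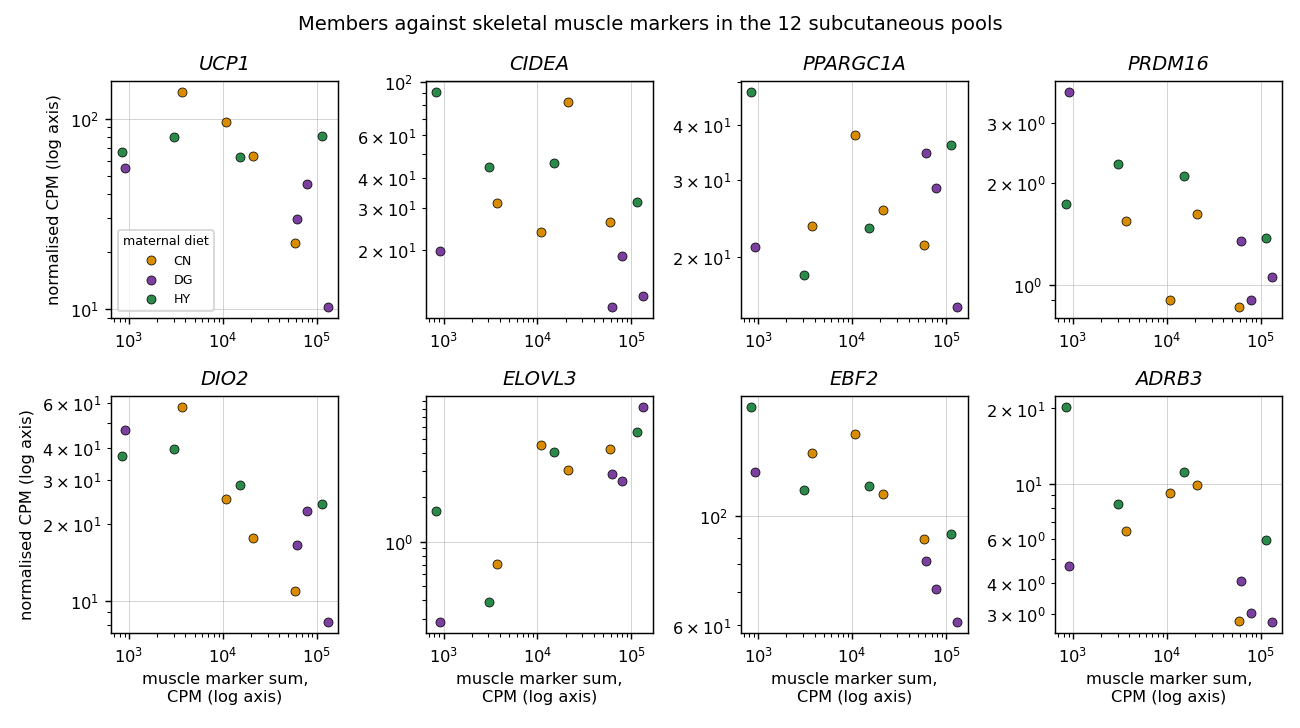
Normalised CPM of each gene against the summed CPM of the skeletal muscle markers in the 12 subcutaneous pools, both on log axes, coloured by maternal diet. EBF2 and DIO2 fall and ELOVL3 rises along the muscle sum, while PPARGC1A shows no trend (r = -0.12).

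Because the muscle sums differed so widely, the depots were also compared with only the 6 subcutaneous pools lowest in muscle markers (837 to 15077 CPM; CN M1, CN M2, DG M1, HY F1, HY M1 and HY M2), a choice made after seeing the data. UCP1 then differed by 2.87 ± 0.21 on the log2 scale, ADRB3 by 1.81 ± 0.26, CIDEA by 1.74 ± 0.30, PRDM16 by 1.60 ± 0.19, DIO2 by 1.25 ± 0.20 and EBF2 by 0.65 ± 0.12 (SE). PPARGC1A differed by -2.67 ± 0.26, against -2.68 over all 12 pools. All 7 were called, but the share of all genes called in this fit is not given here. With all 12 subcutaneous pools, 32% of all genes were called higher and 35.3% lower, so the calls by themselves set none of the 7 apart. ELOVL3 failed the filter on low counts. Its median was 1.17 CPM in these 6 pools and 3.65 CPM in the other 6. The part of the muscle markers in the depot differences was not tested.

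**Figure D3:**
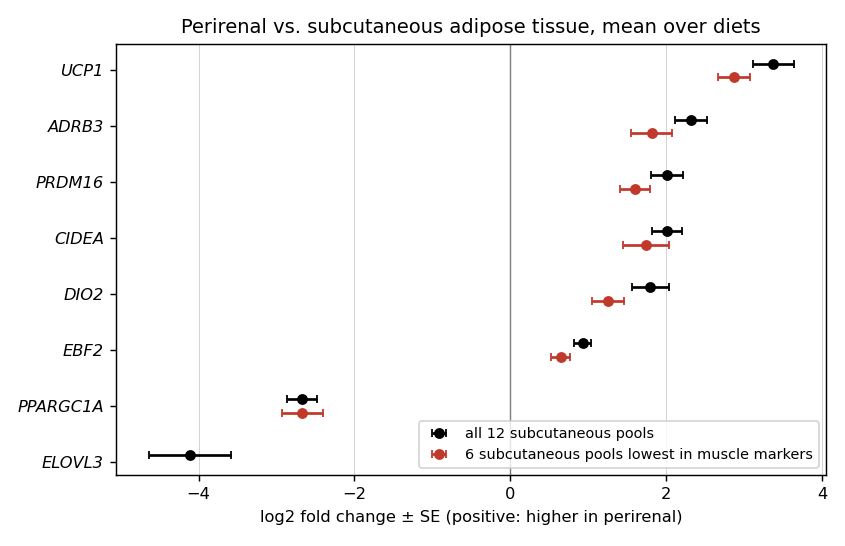
Log2 fold change between perirenal and subcutaneous tissue with its SE, positive where perirenal tissue was higher, over all 12 subcutaneous pools and over the 6 pools lowest in muscle markers. UCP1 has the largest positive difference in both (3.38 and 2.87), and PPARGC1A is at -2.68 and -2.67.

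The wider circuit around these genes was described from fixed lists of names, by the count called between perirenal and subcutaneous tissue and the median of the list, where the median over all genes tested was -0.02 (log2). Of all genes tested, 32% were called higher and 35.3% lower in perirenal tissue, so a call by itself sets no gene of a list apart. Loci listed with a second locus in only 1 of the depots are named as such, because their counts can depend on the assembly of each tissue. The counts called include genes with a median at or near 0 in 1 depot, such as TBX15, ESRRG, CEBPD, SLC16A10, HOXC10 and TCF21. Such genes may have passed the filter on low counts through another tissue alone, so their direction is given as a description. The muscle marker sum was 837 to 132168 CPM in the subcutaneous and 10.1 to 554 CPM in the perirenal pools. List values in the subcutaneous pools low in muscle markers are not given here. The part of muscle RNA in the list differences, counts and medians was not tested. Of 21 tested activators of brown adipocyte transcription, 7 were higher and 11 lower (median -0.16). TBX15, a T-box factor, had a median of 0.0970 CPM in perirenal and 69.7 CPM in subcutaneous tissue (32.6 CPM in muscle). ESRRG, an estrogen-related receptor, was at 0 and 3.95 CPM (27.2 CPM in muscle). CEBPA, an adipogenic factor, stood at 235 and 0.718 CPM, and CEBPD, its relative, at 3.34 and 0 CPM. Both CEBPA and CEBPD had a second locus in only 1 of the depots.

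Of 7 repressors, 2 were higher and 1 lower (median 0.11). RB1, the retinoblastoma protein, had median levels of 43.0 CPM in perirenal and 3.95 CPM in subcutaneous tissue, TLE3, which competes with PRDM16, 65.0 and 51.5 CPM, and NRIP1, a corepressor of UCP1, 33.2 and 47.9 CPM. In the beta-adrenergic and cAMP list, 7 of 19 were higher and 11 lower (median -0.27). The regulatory subunits of protein kinase A went opposite ways, PRKAR2B at 657 and 51.9 CPM (perirenal and subcutaneous median) and PRKAR2A at 21.3 and 261 CPM. The catalytic subunit PRKACB stood at 26.2 and 4.06 CPM, and the phosphodiesterase PDE4D at 0.858 and 28.1 CPM. PRKAR2A, PRKAR2B and PDE4D each had a second locus in only 1 depot.

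In thyroid hormone metabolism, 2 of 8 were higher and 4 lower (median -0.24). DIO1, a second activating deiodinase, had a median of 119.6 CPM in perirenal and 5.99 CPM in subcutaneous tissue, and SLCO1C1, a thyroxine carrier, 4.24 and 0.792 CPM. The transporter SLC16A10 stood at 0.0730 and 10.2 CPM and the receptor THRA at 35.6 and 70.8 CPM. Of 21 genes of mitochondrial fuel use, 10 were higher and 3 lower (median 0.28). COX7A1, a cytochrome oxidase subunit used as a brown fat marker, stood at 336 and 164 CPM, SLC27A1, a fatty acid transporter, at 16.1 and 7.51 CPM, ACOT11, a cold-induced thioesterase, at 2.25 and 1.23 CPM, and ATP2A2, a calcium pump also abundant in muscle (945 CPM there), at 117 and 596 CPM. ATP2A2 shared its interval with ANAPC7 in both depots, and with further loci of its own name in perirenal tissue only. The part of these loci in its difference was not tested.

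Of 11 other reported brown and beige markers, 6 were higher and 3 lower (median 0.37), led by EVA1A (1.65 and 0.187 CPM, perirenal and subcutaneous median) and TMEM26 (29.3 and 2.45 CPM), with SHOX2 (0.413 and 1.87 CPM) and S100B (13.0 and 65.3 CPM, with a second locus in 1 depot) lower. S100B is also 1 of 4 listed nerve sheath markers. Their sum was 95.6 to 5937 CPM in subcutaneous and 25.0 to 143 CPM in perirenal pools, and its part in the S100B difference was not tested. Of 10 reported white adipocyte markers, 6 were also higher and 3 lower (median 0.71). Those with the largest differences were HOXC10 (5.31 and 0 CPM), TCF21 (2.65 and 0 CPM), RETN (0.580 and 0.0869 CPM) and HOXC9 (12.1 and 1.32 CPM, with a second locus in 1 depot), where muscle had medians of 20.8 CPM of HOXC10 and 50.5 CPM of HOXC9. Among 13 tested relatives of the 8 genes, 4 were higher (DIO1, UCP2, CIDEC and EBF4, the last with a second locus in 1 depot) and 5 lower, among them UCP3, at 0.0723 and 0.798 CPM, ELOVL6, at 41.9 and 339 CPM and with a second locus in 1 depot, and PPARGC1B, at 9.24 and 68.9 CPM. PPARGC1B had a single locus in each depot. The muscle medians of UCP3, ELOVL6 and PPARGC1B were 28.0, 12.0 and 115 CPM.

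The second question was whether the maternal diet shifted these genes within a tissue. No gene of the 8 was called at FDR ≤0.05 in any of the 9 comparisons of 2 diets by edgeR's quasi-likelihood test. The share called over all genes in muscle was 1.03% between CN and DG, 2.98% between CN and HY and 0% between DG and HY, and it was 0% in all 6 comparisons of adipose tissue. In muscle only CIDEA, PPARGC1A, PRDM16 and EBF2 had enough counts to be tested, and in perirenal tissue all but ELOVL3. At an unadjusted p under 0.05, 1 gene passed in muscle CN vs. DG and 0 in both other muscle comparisons, 1 gene in CN vs. DG, 0 in CN vs. HY and 2 in DG vs. HY of subcutaneous tissue, and 1, 1 and 2 genes in the same order of comparisons in perirenal tissue. The shares of all genes under that limit were, in this order, 16.4%, 20.5% and 2.18% in muscle, 15.0%, 4.37% and 18.2% in subcutaneous tissue and 9.87%, 2.34% and 9.99% in perirenal tissue. DESeq2 called 0 of the genes in 8 of these comparisons and 2, CIDEA and ADRB3, in subcutaneous DG vs. HY. The share of all genes that DESeq2 called is not given here, so these calls by themselves set neither gene apart.

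**Figure D4:**
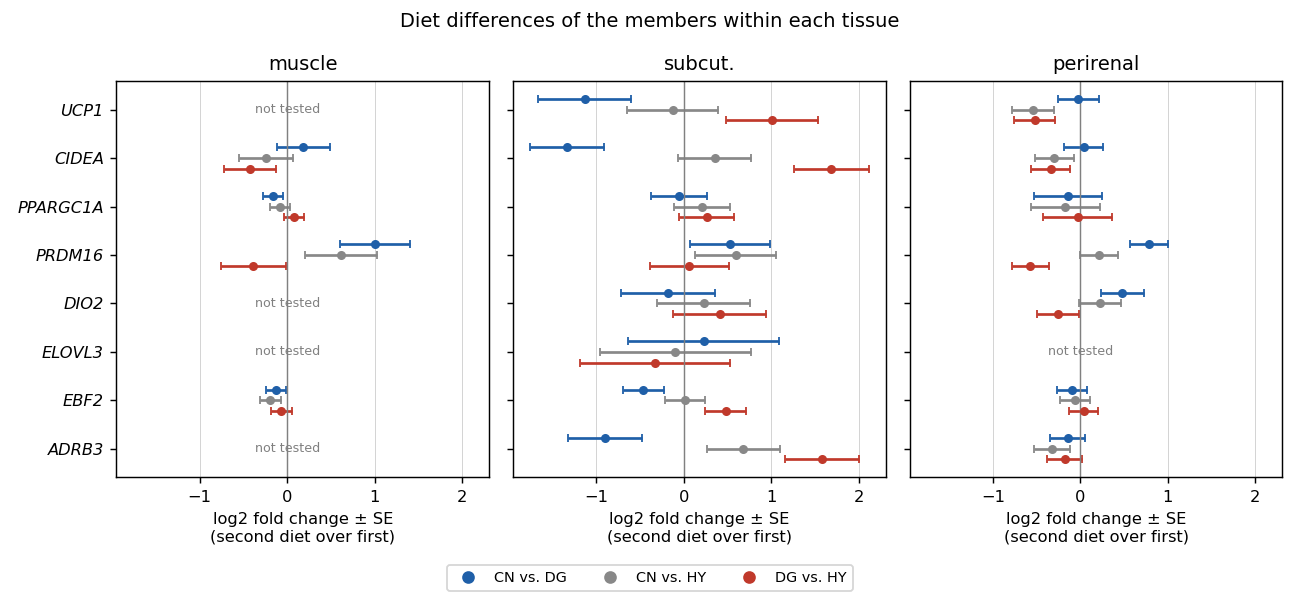
Log2 fold change with its SE for each gene and pair of diets in muscle, subcutaneous (subcut.) and perirenal tissue, positive where the second diet was higher, with genes under the filter on low counts marked as not tested. The largest differences are those of CIDEA (1.69) and ADRB3 (1.58) in subcutaneous DG vs. HY, and none passed FDR ≤0.05 in edgeR.

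In subcutaneous tissue the values lay lower in DG than in HY for CIDEA, ADRB3 and UCP1. CIDEA stood at 12.9, 11.6, 19.8 and 18.9 CPM in the DG pools F1, F2, M1 and M2, at 91.2, 31.8, 44.2 and 46.2 CPM in the same order of HY pools, and at 82.7, 26.2, 31.4 and 23.8 CPM in the CN pools. No DG pool reached the lowest pool of either other diet. DG vs. HY differed by 1.69 ± 0.43 (SE, log2) with an unadjusted p of 0.00195 and an adjusted p of 0.116 (edgeR). For CN vs. DG the difference was -1.33 ± 0.43 (adjusted p = 0.26, edgeR).

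ADRB3 stood at 2.79, 4.06, 4.67 and 3.04 CPM in DG (F1, F2, M1, M2), at 20.3, 5.96, 8.32 and 11.1 CPM in HY, and at 9.86, 2.81, 6.47 and 9.18 CPM in CN. All HY pools exceeded all DG pools, while CN overlapped both. The DG vs. HY difference was 1.58 ± 0.42 (SE, log2, unadjusted p = 0.00261, adjusted p = 0.122, edgeR). UCP1 stood at 10.2, 29.6, 55.2 and 45.4 CPM in DG and at 66.6, 80.8, 80.5 and 62.7 CPM in HY, again without overlap, with a difference of 1.01 ± 0.53 (adjusted p = 0.328, edgeR). In CN, UCP1 ranged from 22.3 to 138 CPM and spanned nearly all other pools.

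Complete separation of 4 pools from 4 gives an exact two-sided permutation p of 0.0286, the smallest this design allows. Of the 57 comparisons of a gene between 2 diets in a tissue where it was tested, 7 were separated in this way. Over all genes tested, the pools did not overlap for 8.87% in CN vs. DG, 12.7% in CN vs. HY and 1.91% in DG vs. HY of muscle, for 6.99%, 2.85% and 9.3% in the same order in subcutaneous tissue and for 6.44%, 1.58% and 5.48% in perirenal tissue. Beside those of CIDEA, ADRB3 and UCP1 in subcutaneous tissue, these were EBF2 in muscle (CN above HY), PRDM16 in perirenal tissue (DG above CN) and UCP1 in perirenal tissue (CN above HY). With the muscle marker sum as a covariate, the subcutaneous DG vs. HY difference was 1.47 ± 0.42 for CIDEA (adjusted p = 0.112), 1.24 ± 0.37 for ADRB3 (adjusted p = 0.114) and 0.91 ± 0.48 for UCP1 (adjusted p = 0.34, all edgeR), beside the higher muscle sums of DG given above.

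Perirenal tissue showed other differences. UCP1 stood at 585, 709, 743 and 735 CPM in the CN pools F1, F2, M1 and M2, at 662, 1032, 423 and 650.2 CPM in DG and at 545, 576, 369 and 408 CPM in HY. All HY pools lay below all CN pools, and HY was lower than CN by an estimate of -0.54 ± 0.24 (SE, log2, unadjusted p = 0.0364), but the adjusted p was 0.9998 (edgeR). PRDM16 stood at 9.65, 10.9, 8.28 and 6.73 CPM in DG and at 4.30, 6.56, 5.11 and 4.28 CPM in CN, a difference of 0.79 ± 0.22 (unadjusted p = 0.00256, adjusted p = 0.185, edgeR). HY lay between, at 5.64, 5.64, 7.42 and 4.64 CPM. In muscle, PRDM16 had its higher mean in DG than in CN as well, with no pool above 1.84 CPM and a log2 difference of 1.005 ± 0.40 (adjusted p = 0.24, edgeR).

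**Figure D5:**
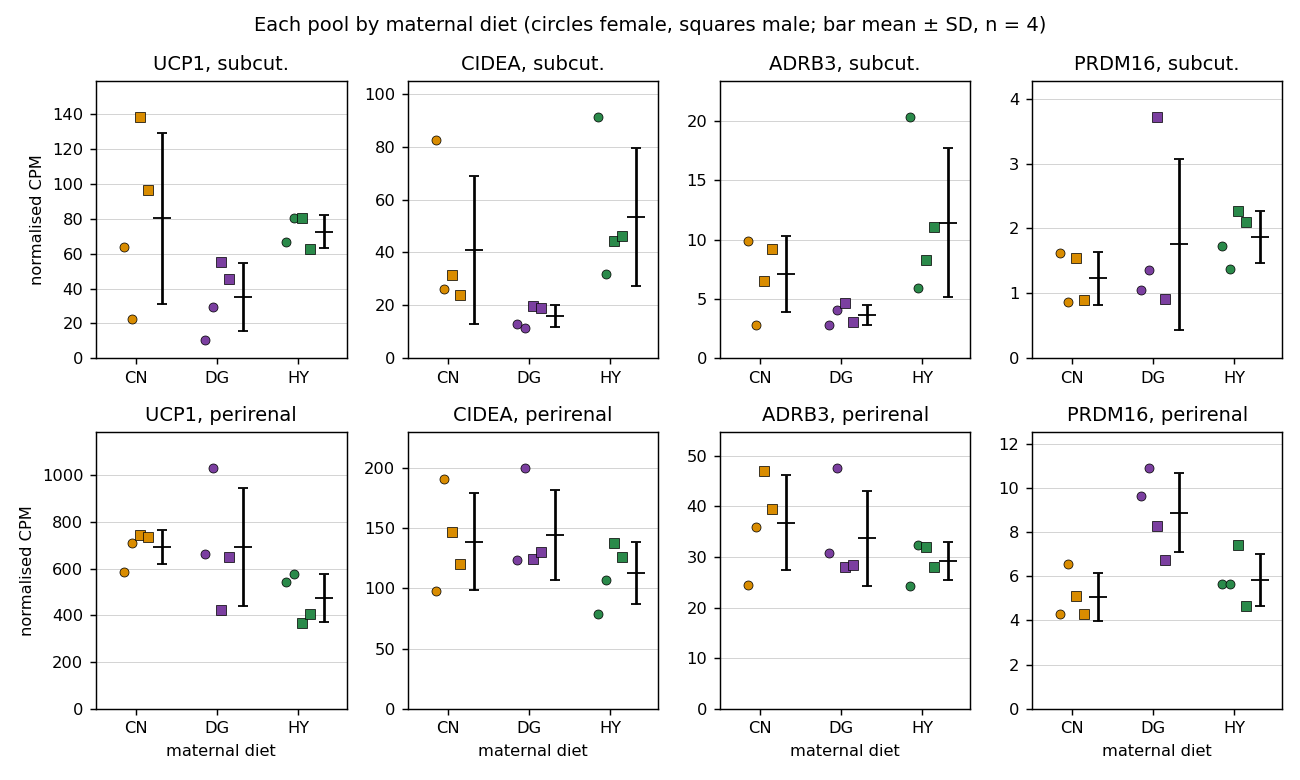
Normalised CPM of UCP1, CIDEA, ADRB3 and PRDM16 in each subcutaneous (subcut., top) and perirenal pool (bottom) by maternal diet, with circles for female and squares for male pools and the mean ± SD of 4 pools beside them. In subcutaneous tissue CIDEA lies at 11.6 to 19.8 CPM in DG and at 31.8 to 91.2 CPM in HY, while in perirenal tissue the diets overlap at 78.9 to 200.3 CPM.

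Whether the diet difference was unequal in the depots was tested directly in the fit of all 36 pools. For DG vs. HY, 2 of the 8 genes were called, where 7.14% of all genes were. The difference in perirenal tissue minus that in subcutaneous tissue was -2.12 ± 0.46 on the log2 scale for CIDEA (SE, adjusted p = 0.0131, edgeR) and -1.85 ± 0.49 for ADRB3 (adjusted p = 0.0265, edgeR). HY exceeded DG in subcutaneous tissue for both genes, whereas in perirenal tissue the estimates were -0.34 ± 0.22 and -0.18 ± 0.20, neither called. UCP1 gave -1.60 ± 0.59 (adjusted p = 0.0908, edgeR).

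CIDEA was called in each of 24 fits that left out 1 pool. ADRB3 was not called without subcutaneous DG F2, DG M2 or HY F1 or without perirenal DG F2 or HY F1, with adjusted p up to 0.0722. With the pool as a replicate block, which joins tissues of the same fetuses, 1 gene was called, CIDEA (6.45% of all genes), and ADRB3 had an adjusted p of 0.0672 (edgeR). Leaving out subcutaneous DG M1, the DG pool low in muscle markers (917 CPM), raised the number called from 2 to 5, adding UCP1, PRDM16 and EBF2, while the share called over all genes was 11.0%. With the muscle marker sum as a covariate in the subcutaneous pools, CIDEA (-1.87 ± 0.44, adjusted p = 0.0185) and ADRB3 (-1.49 ± 0.43, adjusted p = 0.0365) were called by edgeR. The share of all genes called in that fit was 7.63%, and the part of muscle RNA in these differences was not tested.

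When CN was compared with either DG or HY, 0 of the 8 differences between depots were called by edgeR or DESeq2 (0.00721% and 0% of all genes by edgeR), with 1 gene each at an unadjusted p under 0.05, where 11.5% and 7.05% of all genes were. These were CIDEA, at 1.44 ± 0.46 for CN vs. DG (adjusted p = 0.341, edgeR), and ADRB3, at -1.03 ± 0.48 for CN vs. HY (adjusted p = 0.704, edgeR). These comparisons share diet groups with DG vs. HY and are not separate evidence. Of the list genes, those called for DG vs. HY between depots were RXRA, a nuclear receptor partner, ADCY6, an adenylate cyclase (both more negative in perirenal tissue), and NRIP1 (more positive). Over all genes 7.14% were called in this comparison, and the number of list genes tested is not given here, so the calls by themselves set none of these genes apart. ADCY6 shared its interval with a further locus of its own name in perirenal but not in subcutaneous tissue. Within either adipose tissue, edgeR called 0% of all genes between diets, so no list gene could be called there. Of all genes in muscle, 1.03% were called where DG was compared with CN, and 2.98% where HY was. The calls in muscle by themselves therefore set no list gene apart. CTBP1, a corepressor, was higher in DG (1.44 ± 0.22, adjusted p = 0.0137) and HY (1.14 ± 0.22, adjusted p = 0.0215) than in CN, and GABPA, SLC27A1 and THRA were higher in HY than in CN, with differences of 1.04, 0.87 and 0.80 (edgeR).

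Sex was compared with diet in the model. None of the genes was called in any tissue (0% of all genes in muscle and subcutaneous tissue and 0.0222% in perirenal tissue), and DESeq2 called 0 of them as well. At an unadjusted p under 0.05, though not after adjustment, DIO2 (1.05 ± 0.34, SE, log2) and UCP1 (0.90 ± 0.36) had higher estimates in male than in female subcutaneous pools (adjusted p = 0.279 and 0.314, edgeR), and so had DIO2 in male perirenal pools (0.39 ± 0.18, adjusted p = 0.9996, edgeR). Over all genes 14.9% passed that limit in subcutaneous and 3.26% in perirenal tissue. The muscle marker sum moved with sex as well. In subcutaneous tissue it was 837, 60110 and 132168 CPM (lowest, median, highest) in the 6 female pools and 917, 7264 and 78590 CPM in the 6 male pools, and 5 of the 6 pools lowest in these markers were male. In perirenal tissue it was 10.1 to 44.4 CPM in female and 85.0 to 554 CPM in male pools. Its part in the differences between sexes was not tested.

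Within a depot, UCP1 was compared with the other 7 genes over 12 pools, 14 relations in all. In subcutaneous tissue its log2 level followed DIO2 (r = 0.85, permutation p = 0.00035, adjusted p = 0.0049; rho = 0.71, adjusted p = 0.0596) and EBF2 (r = 0.76, permutation p = 0.00317, adjusted p = 0.0222; rho = 0.73, adjusted p = 0.0596). Without the 2 pools of most extreme UCP1, r was 0.61 and 0.62 over 10 pools and neither passed after adjustment, so that both calls rest on including those pools. As deviations from diet means, over all 12 pools, r was 0.89 and 0.63. Over the same subcutaneous pools the adipocyte marker sum had r = 0.76 with UCP1, 0.80 with DIO2 and 0.83 with EBF2. Its part in the relations of UCP1 with DIO2 and EBF2 was not tested. Among the relations of UCP1 in perirenal tissue, the highest was with ADRB3 (r = 0.66, rho = 0.71, permutation p = 0.0204, adjusted p = 0.0716). Among all tested named genes, those whose log2 levels ran closest to UCP1 over the 12 perirenal pools were RFX3 (r = 0.88), LIN7B (r = 0.87), C5orf52 (r = 0.85), FAM169A (r = 0.85) and COMP (r = 0.82), out of 10889 compared. Over the 12 subcutaneous pools they were TMEM179B (r = 0.92), SH3TC2 (r = 0.91), KLB (r = 0.90), FGF12 (r = 0.90) and NCEH1 (r = 0.89), out of 11166, and no gene was in both lists. Both lists were picked by the highest r among all genes compared, and how often chance gives such values was not tested. RFX3 (0.500 to 1.58 CPM) and LIN7B (0.619 to 2.36 CPM) were also low in perirenal tissue. The part of the marker sums in either list was not tested.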

How the data were processed

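RNA-seq was done on 36 pools of fetal sheep RNA (12 per tissue, 4 per tissue and diet). The authors mapped the reads, sequenced from 1 end, with TopHat2 2.0.4 to the Oar_v3.1 build, assembled loci with Cufflinks 2.1.1 separately per tissue and deposited raw read counts per locus, without normalization. HTSeq is also named in the submitters' processing notes, and its version, overlap mode and strand setting are not given in the sources used here. Because loci were assembled per tissue, a name can cover different bases, or a second locus, in different tissues.

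Counts were summed by gene name. Names on the same loci were kept as 1 feature, so some listed genes went unmeasured or shared a locus. Depots were compared in 1 fit of all 36 pools over the names found in all 3 tissues (13878 tested), averaging diets, and diets and sexes within each tissue (17807 to 18239 names tested). Counts were filtered with filterByExpr (minimum count 10, minimum total 15), scaled by TMM and tested with edgeR 4.0.16 (quasi-likelihood F test, robust), with Benjamini-Hochberg adjustment over all genes and calls at FDR ≤0.05. SE is the absolute log2 fold change over the square root of F. Library totals of 6705766 to 29625146 limit precision, and the floor of 3 counts covers counting error only. Correlations used log2(CPM + 0.1) with 100000 permutations.

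The same number (F1, F2, M1, M2) in different diets is only a number. Deviations of same-numbered pools correlated at a mean r of -0.04 (muscle), 0.22 (subcutaneous) and 0.06 (perirenal), not above 0.1 in every pair. Between tissues, equal names denote the same fetuses by the study's pool list, taken to hold for every tissue, and their mean r was 0.08, 0.12 and 0.04. Alternatives were RLE and plain library totals, no filter, DESeq2 1.42.0, loci with a single name, only the compared pools, the replicate block, the muscle marker covariate and each pool left out. Fits ran in R 4.3.3, and tables, permutations and plots in Python 3.11.15 with pandas 2.3.3, scipy 1.17.1 and matplotlib 3.10.9. Scripts were tested on simulated data. The 8 genes and all lists were chosen with earlier results of these data known. Named beside them are the 4 called genes of largest difference between depots in each pathway list, list genes called between diets, and the 5 genes closest to UCP1 in each depot. CIDEC, UCP2, EBF4, RXRA, ADCY6 and NRIP1 were named after their values were seen. No sequences are shown.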

Additional observations from a re-analysis of the deposited data

Results flagged for a closer look

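In 5 of 56 groups of 4 pools, 1 pool lay apart from the other 3 by more of the group's range than Dixon's limit allows, where chance marks about 1 group in 20. CIDEA was 82.7 CPM in subcutaneous CN F1, with the other CN pools at 23.8 to 31.4 CPM, and 200.3 CPM in perirenal DG F2, with the others at 124 to 130.2 CPM. ADRB3 was 47.6 CPM in the same perirenal pool, DG F2, with the others at 28.0 to 30.7 CPM. PRDM16 was 3.71 CPM in subcutaneous DG M1, with the others at 0.905 to 1.35 CPM, and EBF2 was 295 CPM in perirenal CN M1, with the others at 177 to 188 CPM. The subcutaneous pool DG M1 was also the lowest of its diet in muscle markers.

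The DG vs. HY difference was unequal in the depots for CIDEA, by -2.12 on the log2 scale (perirenal minus subcutaneous, adjusted p = 0.0131, edgeR), and for ADRB3, by -1.85 (adjusted p = 0.0265, edgeR). In subcutaneous tissue HY exceeded DG in all 4 pools against all 4 pools for both genes, and in perirenal tissue the pools of these diets overlapped. The muscle marker sums of subcutaneous DG and HY pools differed as well (medians 69988 and 9067 CPM), and the differences were -1.87 and -1.49 with that sum as a covariate.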

How the results depend on the processing

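Over 124 pairs of a gene and a comparison, 2720 alternative values were computed. None that was called changed direction, 2705 kept their side of the threshold, 9 moved past it and 6 fell short of it, and 105 changed sign where neither value was called. The pairs include those set aside above, namely UCP1, DIO2 and ADRB3 against muscle, and ELOVL3. The first 3 could hardly lose their call, so their part of the 2705 says little. Those that moved past include ELOVL3 between perirenal tissue and muscle, with library totals alone (adjusted p = 0.0308, edgeR) and with DESeq2 (adjusted p = 0.0381). The number of the 8 genes with an unequal DG vs. HY difference between depots was 2, 1 with the replicate block and 1 to 5 with each pool left out. In subcutaneous DG vs. HY it was 0, and 2 with DESeq2 (CIDEA and ADRB3, adjusted p = 0.00837 and 0.0146). With each pool left out it was 0 to 1 (ADRB3 without HY F2, adjusted p = 0.0478, edgeR). A block on the pool number, which within a tissue joins pools of different diets, gave 1 (CIDEA, adjusted p = 0.0488, edgeR). Equal numbers across diets share only sex. The shares of all genes called under these alternatives are not given here, so the counts set neither gene apart. Neither block changed any other call. The other counts of called genes stayed within 1.5 times under each alternative run. Of the relations of UCP1 with the other genes, 2 passed, 1 with a pseudocount of 1 CPM, 1 as deviations from diet means and 0 without the 2 farthest pools. Of those with marker sums 9 passed, and 4 without the 2 farthest pools. The cause of these changes was not tested. Depth limits ELOVL3 in perirenal tissue and PRDM16 in subcutaneous tissue, with 0 to 8 and 6 to 39 counts per pool. The comparison with 6 subcutaneous pools and the covariate in the differences between depots were added after seeing the data.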
